A study of Mus musculus with 6 samples.

Results

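Among the genes measured in CpG-stimulated and unstimulated mouse B cells were 10 ligands of the TNF superfamily: Tnf, Lta, Ltb, Tnfsf4, Tnfsf8, Tnfsf9, Tnfsf14, Tnfsf13b, Cd70 and Fasl. They were chosen by symbol, and all 10 are among the 23420 genes of the data. Splenic B cells of wild-type (WT) BALB/c mice were purified with magnetic beads and cultured for 4 hours with 10 μg/ml of CpG ODN 1826, an oligodeoxynucleotide agonist of TLR9, or without it. Each group had 3 samples, and the mice were 7 to 11 weeks old; replicates 1 and 2 of both groups were female and replicate 3 was male. No gene was deleted and no transgene was carried in either group, and both groups were kept at 10 M cells per ml. In the study, this comparison served to define the genes that TLR9 induces in B cells.

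TNF superfamily ligands are proteins that mostly sit on the cell surface as trimers and act on receptors of the TNF receptor superfamily, some of them after being cut from the membrane. TNF and lymphotoxin α signal through TNFR1 and TNFR2, while lymphotoxin α bound to lymphotoxin β on the membrane acts on the lymphotoxin β receptor, which shapes follicles and stromal cells in lymphoid organs. OX40L, 4-1BBL, CD70, CD30L and LIGHT are costimulatory ligands for T cells and other lymphocytes, BAFF (encoded by Tnfsf13b) keeps B cells alive, and Fas ligand induces apoptosis.

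Values are log2 CPM as deposited, which are read counts scaled to library size, and the quantity of 10 reads in a library of 17.8 M reads lies at -0.76 on this scale. Because the libraries were quantile normalized before deposit, the depth of each one cannot be read from its values, and a change in total RNA would not be seen. All 8 B cell marker genes stood above 10 reads in every sample. Their summed CPM was 2584 to 2959 in stimulated and 3881 to 4512 in unstimulated samples. In bulk RNA, fewer cells of a type and less RNA per cell cannot be told apart. Of 8 T cell marker genes, 4 were under 3 reads in all 6 samples. The T cell sum was 1.92 to 2.11 CPM in stimulated and 1.77 to 2.25 CPM in unstimulated samples, and the sums of 6 NK cell genes were 2.28 to 5.48 and 4.52 to 6.13 CPM. The 9 myeloid marker genes summed to 16.7 to 23.2 and 17.6 to 23.3 CPM, while the 7 dendritic cell genes, some of which B cells also express, summed to 90.8 to 106 CPM with CpG and 32.5 to 39.4 CPM without. Erythroid genes ranged from 384 to 4912 CPM in sum, and were highest in replicate 2 of both groups.

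Of the 10 ligands, 5 had at least 10 reads in at least 3 samples and were tested together with 11233 genes in all by limma with Benjamini-Hochberg adjustment. Of these 5, Tnf, Lta, Tnfsf9 and Tnfsf4 rose with CpG and Ltb fell. All 5 had 10 reads in all 6 samples. In each of them the groups did not overlap and the log2 fold change (log2FC) was over 1 in size. Calls were common in this comparison. Of all genes tested, 37.6% were called higher and 36.7% lower at an adjusted p under 0.05, 15.8% were higher with a log2FC over 1, and 15.3% were lower with a log2FC under -1. Groups without overlap were found with stimulated samples higher in 39.1% and lower in 38.6% of genes. The other 5 ligands, Tnfsf14, Tnfsf13b, Cd70, Fasl and Tnfsf8, had too few reads to enter the test.

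**Figure D1:**
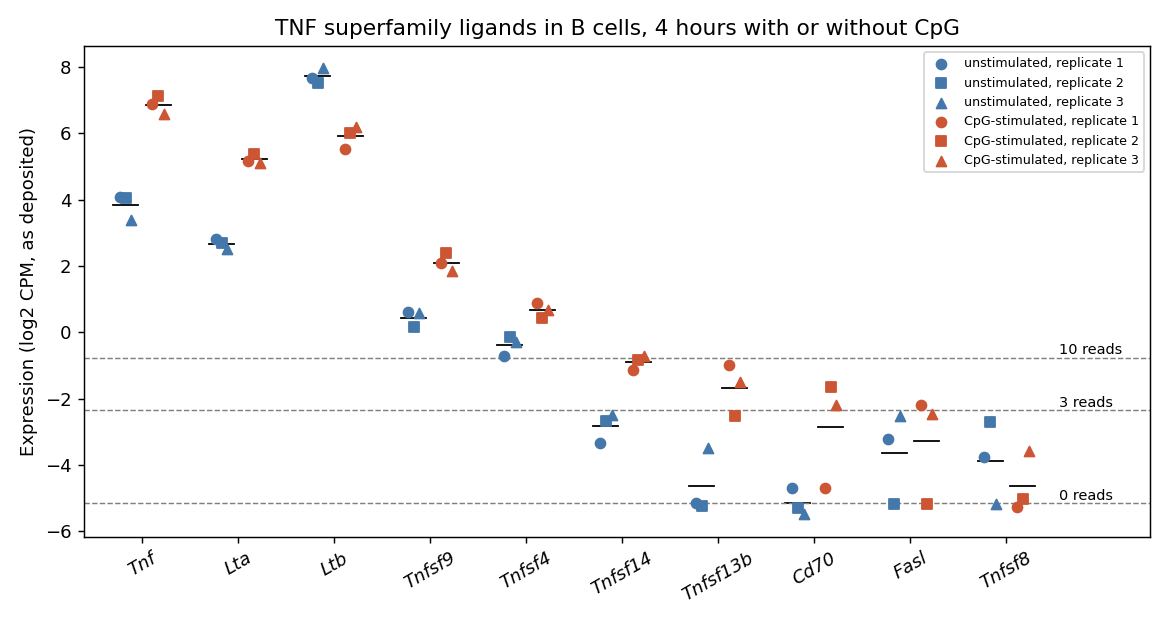
Expression of the 10 ligands in each sample, in log2 CPM as deposited; points are samples, short lines are group means, and dashed lines mark the values of 10, 3 and 0 reads. Tnf and Lta lie higher in the 3 stimulated samples and Ltb in the 3 unstimulated ones, and the 5 ligands on the right lie near or under 10 reads.

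Lta, Tnf and Ltb lie side by side on chromosome 17 (GRCm38), within the class III region of the major histocompatibility complex. Lta spans chr17:35203165-35205351 and Tnf chr17:35199381-35202007, both on the minus strand, and Ltb spans chr17:35194439-35196320 on the plus strand. Between Lta and Tnf there are 1157 bases and between Tnf and Ltb 3060 bases. The 180 bases before the annotated start of each gene are shown because these 3 neighbors differed in direction; capitals mark the only matches to the motifs searched, TATAAA in Lta and Tnf and the reverse complement of a κB motif in Ltb. All are upstream and intergenic and are read 5′ to 3′ on the strand of the gene, Lta at chr17:35205352-35205531, Tnf at chr17:35202008-35202187 and Ltb at chr17:35194259-35194438.
Lta: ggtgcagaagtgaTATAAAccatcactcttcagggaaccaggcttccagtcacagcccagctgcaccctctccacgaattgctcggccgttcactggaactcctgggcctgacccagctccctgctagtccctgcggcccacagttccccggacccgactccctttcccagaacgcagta
Tnf: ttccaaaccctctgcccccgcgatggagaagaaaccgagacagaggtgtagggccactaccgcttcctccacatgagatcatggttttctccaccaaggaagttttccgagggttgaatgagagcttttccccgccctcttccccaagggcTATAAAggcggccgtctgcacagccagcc
Ltb: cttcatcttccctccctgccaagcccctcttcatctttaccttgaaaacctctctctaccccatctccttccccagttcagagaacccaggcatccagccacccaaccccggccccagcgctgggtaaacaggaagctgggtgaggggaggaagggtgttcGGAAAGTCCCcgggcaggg

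Tnf encodes TNF, an inflammatory cytokine that NF-κB induces in many cell types. Its level was 6.89, 7.12 and 6.58 log2 CPM in stimulated replicates 1 to 3, and 4.07, 4.05 and 3.38 in unstimulated replicates 1 to 3. All stimulated samples were above all unstimulated ones, with replicate 3 the lowest of both groups. The group means were 6.86 ± 0.27 and 3.83 ± 0.39 (SD, n = 3), a log2FC of 3.03 (SE 0.19, 95% interval 2.61 to 3.45), or 8.17-fold, with an adjusted p of 3.02e-07 by limma. Of the 7 dendritic cell genes, Zbtb46 (4.43 to 6.06 log2 CPM on average) and Flt3 (3.58 to 4.91) rose along with Tnf and carried the sum, and Ccr9 fell by 0.94 (adjusted p 0.0158 by limma). Itgax, which encodes CD11c, Clec9a and Siglech were under 10 reads in every sample. The study's methods describe a depletion of CD11b+ and CD11c+ cells for other B cells of the same study, while the labels here name only bead purification.

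Lta encodes lymphotoxin α, which is secreted as a homotrimer or held on the membrane with lymphotoxin β. Its level was 5.15, 5.39 and 5.10 log2 CPM in the stimulated replicates and 2.81, 2.70 and 2.51 in the unstimulated ones. The groups were apart by more than 2 log2 units. The means of 5.21 ± 0.16 and 2.67 ± 0.15 (SD, n = 3) gave a log2FC of 2.54 (SE 0.12, 95% interval 2.28 to 2.81), or 5.83-fold, with an adjusted p of 5.67e-08 by limma.

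Ltb encodes lymphotoxin β, the membrane anchor that turns lymphotoxin α into a ligand of the lymphotoxin β receptor. Its level went the other way, with 5.52, 6.02 and 6.18 log2 CPM in the stimulated replicates and 7.66, 7.53 and 7.96 in the unstimulated ones. All stimulated samples were below all unstimulated samples. The means were 5.91 ± 0.35 and 7.72 ± 0.22 (SD, n = 3), so Ltb fell by 1.81 on the log2 scale (SE 0.16), to a level 3.50-fold lower, with an adjusted p of 3.68e-06 by limma. The summed CPM of the 8 B cell markers was lower in the stimulated samples too, and among them Cd79a, Cd79b and Cd22 fell by more than 1 on the log2 scale. Their part in the fall of Ltb was not tested. T cells also express Ltb. The sum of the 8 T cell markers was 1.92 to 2.11 CPM with CpG and 1.77 to 2.25 CPM without, and 4 of these genes were under 3 reads in all 6 samples. The part of T cells in the fall of Ltb was not tested.

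A ratio of 2 transcripts within a sample does not change when a sample is scaled by 1 factor, though the quantile normalization, which moves each gene by its rank, can still bear on it. The log2 ratio of Ltb to Tnf was 3.59, 3.48 and 4.58 in unstimulated and -1.37, -1.10 and -0.40 in stimulated samples, a difference of -4.84. Ltb thus gave more reads than Tnf in all 3 unstimulated samples and fewer in all 3 stimulated samples. The log2 ratio of Ltb to Lta was 4.85, 4.83 and 5.45 without CpG and 0.37, 0.63 and 1.09 with it, a difference of -4.35. Tnf to Lta changed far less, from 1.26, 1.36 and 0.87 to 1.73, 1.74 and 1.49, a difference of 0.49, and here too the groups did not overlap. For each of the 3 ratios the two-sided exact permutation test over samples gave p = 0.1 (adjusted over the 3 ratios, 0.1), the smallest value that 3 samples against 3 can give.

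**Figure D2:**
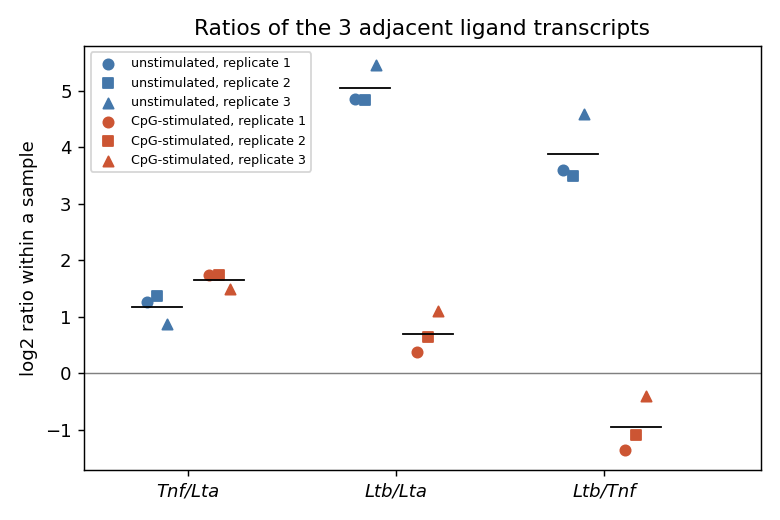
Log2 ratios between the 3 adjacent ligand transcripts within each sample; points are samples and short lines are group means. The ratios of Ltb to Lta and of Ltb to Tnf were lower in all stimulated samples, with mean differences of -4.35 and -4.84, while that of Tnf to Lta differed by 0.49.

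Levels of different genes were set side by side only per kb of exon, as log2 CPM per kb. Without CpG the order of mean levels was Ltb at 7.12, Tnf at 3.12, Lta at 2.20, Tnfsf9 at 0.08 and Tnfsf4 at -1.26, and no neighbors in this order overlapped. With CpG it was Tnf at 6.15, Ltb at 5.31, Lta at 4.75, Tnfsf9 at 1.74 and Tnfsf4 at -0.22. Here Tnf (5.87 to 6.41) was above Ltb (4.92 to 5.58) in every sample, while the lowest Ltb value and the highest Lta value, from different replicates, both rounded to 4.92. Within each stimulated sample Ltb was above Lta, by 0.23, 0.50 and 0.96 log2 units per kb.

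Genes around the 3 ligands did not share these changes as a block. Within 100 kb were 16 other protein-coding genes, 15 of them in the data and 10 tested. Of these, 9 had 10 reads in all 6 samples, with 2 called higher and 6 lower, where 37.6% and 36.7% of all genes tested were. Their log2FC ran from -0.67 to 0.41 with a median of -0.28, against 0.00 over all genes tested. The remaining one, Ly6g5b of the Ly6 family, entered the test only through its stimulated samples. It was at 0.31, -0.03 and -0.11 log2 CPM with CpG and at -2.21, -1.94 and -1.15 without, so no test is given for it.

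**Figure D3:**
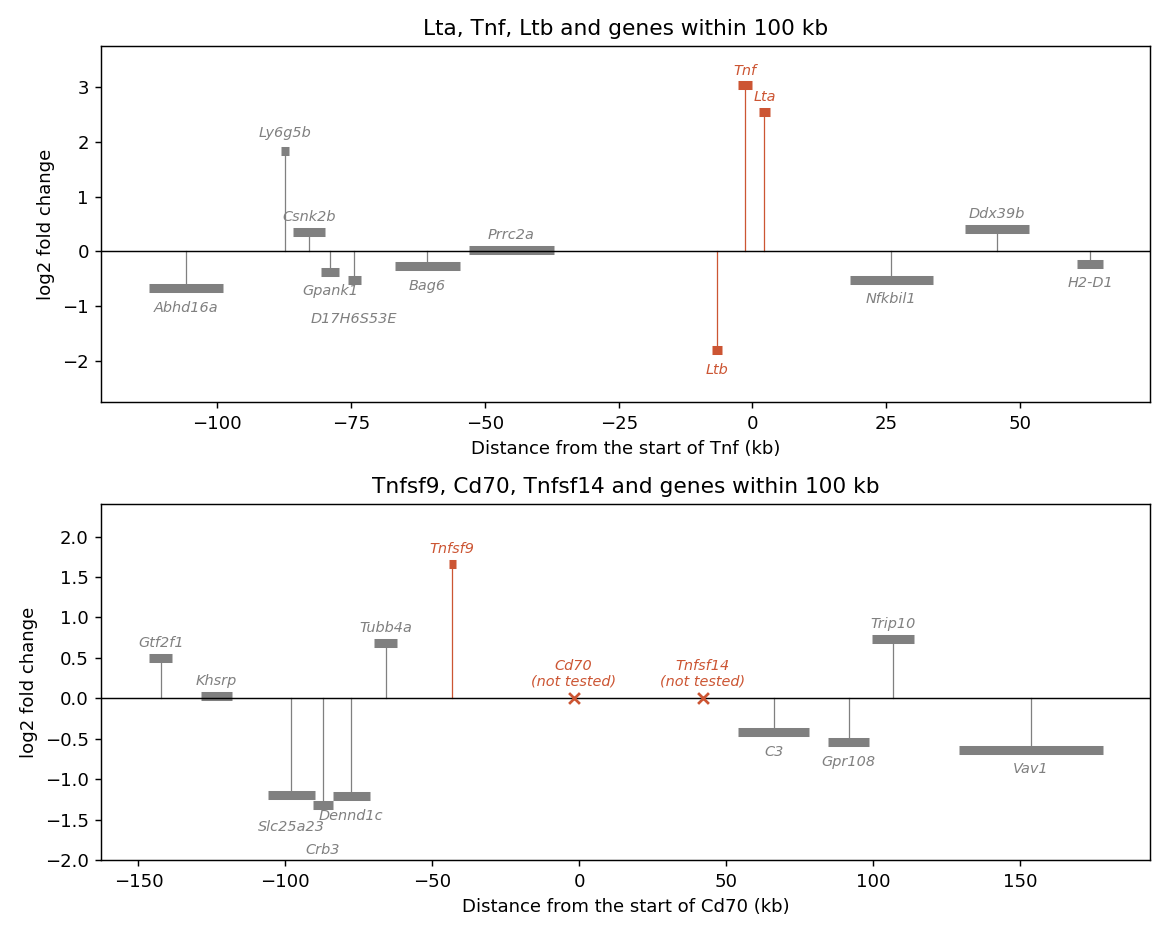
Log2FC of the ligand genes (red) and of tested protein-coding genes within 100 kb of them (grey) against distance in kb from the start of Tnf (upper panel) and of Cd70 (lower panel); bars span each gene and crosses mark ligands with too few reads to test. Tnf, Lta and Ltb lie farther from 0 than nearly all of the genes around them, and Ly6g5b, the one neighbor past 1 in the upper panel, had under 10 reads in the unstimulated samples.

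Tnfsf9 and Tnfsf4 encode the costimulatory ligands 4-1BBL and OX40L, which antigen-presenting cells show to T cells after activation. Tnfsf9 (chr17:57105325-57107757, plus strand) stood at 2.09, 2.39 and 1.84 log2 CPM in stimulated and 0.60, 0.16 and 0.58 in unstimulated replicates. Every stimulated sample was above every unstimulated one. The means of 2.10 ± 0.28 and 0.44 ± 0.25 (SD, n = 3) gave a log2FC of 1.66 (SE 0.23, 95% interval 1.16 to 2.16), or 3.16-fold, with an adjusted p of 7.59e-05 by limma. A long noncoding RNA gene, Gm11110, is annotated on the opposite strand across part of Tnfsf9, and whether reads were counted by strand is not given in the sources used here.

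Tnfsf4 (chr1:161395409-161418410, plus strand) was close to the limit of the test. Its values were 0.88, 0.44 and 0.66 log2 CPM with CpG and -0.72, -0.14 and -0.28 without, which corresponds to 32.1, 23.6 and 27.7 reads against 10.3, 15.6 and 14.1 reads. The groups did not overlap, but the nearest samples were less than 1 log2 unit apart. The means of 0.66 ± 0.22 and -0.38 ± 0.30 (SD, n = 3) gave a log2FC of 1.04 (SE 0.29, 95% interval 0.39 to 1.69), or 2.06-fold, with an adjusted p of 0.00814 by limma. With no filter and the replicate number as a block, the adjusted p was 0.105.

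Tnfsf9 shares its locus with Cd70 and Tnfsf14, with 38239 bases between Tnfsf9 and Cd70 and 39714 bases between Cd70 and Tnfsf14. Tnfsf14 (chr17:57189492-57194177, minus strand) encodes LIGHT, a ligand of HVEM and the lymphotoxin β receptor. It had the worth of 7.54, 9.51 and 10.4 reads in stimulated and 1.27, 2.30 and 2.67 reads in unstimulated samples. The groups did not overlap, though only 1 sample reached 10 reads. Cd70 (chr17:57145997-57149777, minus strand) encodes the ligand of CD27, and had -4.68, -1.65 and -2.20 log2 CPM with CpG and -4.68, -5.29 and -5.48 without. Here the groups met, since replicate 1 had the same value near 0 reads in both.

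Around this second locus, 11 of 12 other protein-coding genes within 100 kb were in the data and 10 were tested. Of the tested genes, 9 had 10 reads in all 6 samples, with 2 called higher and 5 lower. Over all genes tested, the shares were 37.6% and 36.7%. The log2FC of the 9 genes ran from -1.32 to 0.74 with a median of -0.54, against 0.00 over all genes tested. Crb3, an epithelial polarity gene, fell by 1.32 (SE 0.20, adjusted p 0.000196 by limma), and Dennd1c, which encodes a Rab exchange factor, fell by 1.21 (SE 0.09, adjusted p 1.27e-06 by limma). The ends of these 2 genes overlap on opposite strands.

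Tnfsf13b (chr8:10006467-10039072, plus strand), the gene of BAFF, is expressed mainly by myeloid and stromal cells. It had -0.99, -2.52 and -1.49 log2 CPM with CpG, or 8.44, 2.61 and 5.82 reads, and -5.13, -5.24 and -3.49 without, or about 1 read at most. The groups did not overlap. The myeloid markers moved both ways beside it. Adgre1 rose by 0.83 (SE 0.23, adjusted p 0.00811 by limma) and Ly6c2 did not pass, and these 2 genes carried most of the myeloid sum. Csf1r was lower in the stimulated samples (-2.98, -1.52 and -1.45 log2 CPM) than in the unstimulated ones (-0.67, -0.46 and 0.00), as was Cd14. The part of myeloid cells in the values of Tnfsf13b was not tested.

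Fasl (chr1:161780689-161788495, minus strand), the gene of Fas ligand, is typical of cytotoxic T and NK cells. It had -2.18, -5.16 and -2.46 log2 CPM with CpG and -3.22, -5.16 and -2.51 without, so the groups overlapped at the level of a few reads. Tnfsf8 (chr4:63831308-63861347, minus strand), the gene of CD30L, was under 3 reads in all 6 samples. No difference could be detected for either at this depth.

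When no filter on low values was applied, 17977 genes were tested, of which 23.8% were called higher. Tnfsf14 (adjusted p 0.00964), Tnfsf13b (0.00532) and Cd70 (0.0360) were then called higher by limma, and Fasl was not (0.842). With the replicate number as a block as well, Cd70 was no longer called (0.206), and Tnfsf14 (0.0150) and Tnfsf13b (0.0432) were. The unstimulated samples of these ligands were at or under 3 reads. For that reason no fold change is given for them, and these calls are not read as test results.

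The receptors of the 10 ligands form a second layer of the pathway, and B cells themselves carry several of them. Of 12 receptor genes, 9 were tested, and 8 of them had 10 reads in all 6 samples. Of these 8, 5 were called higher, 2 lower and 1 did not pass, with a median log2FC of 0.72, against 0.00 over all genes tested. The shares over all genes tested were 37.6% called higher and 36.7% lower. Of the 8, 4 rose by more than 1 and 1 fell by more than 1 on the log2 scale. Over all genes tested, 15.8% were called higher and 15.3% lower with a change of that size. The ninth, Tnfrsf8, entered the test only through its stimulated samples and is left out of these counts.

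Tnfrsf13b encodes TACI, a receptor for BAFF that favors plasma cell differentiation and class switching. It stood at 7.23, 7.15 and 7.06 log2 CPM in stimulated and 4.19, 4.16 and 4.16 in unstimulated replicates, with no overlap. Its log2FC was 2.98 (SE 0.07, adjusted p 5.40e-09 by limma). The main survival receptor for BAFF, encoded by Tnfrsf13c, had a log2FC of only 0.37 (SE 0.11, adjusted p 0.0111 by limma) and was not called without replicate 2 of both groups (adjusted p 0.0945). Tnfrsf17, which encodes BCMA of plasma cells, stayed under 10 reads in all samples.

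Tnfrsf8, the gene of CD30, had a mean of 2.97 ± 0.50 log2 CPM (SD, n = 3) with CpG, and was at -2.25, -2.88 and -4.67 in the unstimulated replicates. The groups were far apart, but the unstimulated samples held about 3 reads or fewer, so that the difference is given as levels, with no test. Its ligand Tnfsf8, as given above, was under 3 reads in both groups.

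Tnfrsf9 and Tnfrsf4, which encode 4-1BB and OX40, rose along with their ligands Tnfsf9 and Tnfsf4. For Tnfrsf9 the values were 2.62, 2.42 and 2.69 log2 CPM against -0.01, 0.88 and 0.71, with a log2FC of 2.05 (SE 0.24, adjusted p 3.03e-05 by limma). For Tnfrsf4 they were 1.85, 1.70 and 1.99 against 0.56, 0.86 and 0.89, with a log2FC of 1.07 (SE 0.20, adjusted p 0.000627 by limma). Fas, the death receptor of Fas ligand, rose from 1.64, 1.63 and 1.70 to 3.66, 3.99 and 3.63 log2 CPM, with a log2FC of 2.10 (SE 0.14, adjusted p 4.54e-07 by limma). In none of these 3 receptors did the groups overlap.

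Cd27, the receptor of CD70, fell from 2.23, 1.87 and 1.88 to 0.63, 0.42 and 0.64 log2 CPM, with a log2FC of -1.43 (SE 0.20, adjusted p 9.53e-05 by limma). Of the receptors for TNF, Tnfrsf1b (TNFR2) was at 7.93 ± 0.08 log2 CPM with CpG and 8.60 ± 0.17 without (SD, n = 3), and fell by 0.67 (SE 0.09, adjusted p 5.83e-05 by limma). Tnfrsf1a (TNFR1) and Ltbr, the lymphotoxin β receptor, which is typical of stromal and myeloid cells, were under 10 reads in every sample. Tnfrsf14, the gene of HVEM, did not pass, with a log2FC of 0.25 (95% interval -0.12 to 0.62, adjusted p 0.190 by limma). Tnfrsf13c, Tnfrsf1b and Tnfrsf14 were picked for mention after their values were seen.

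**Figure D4:**
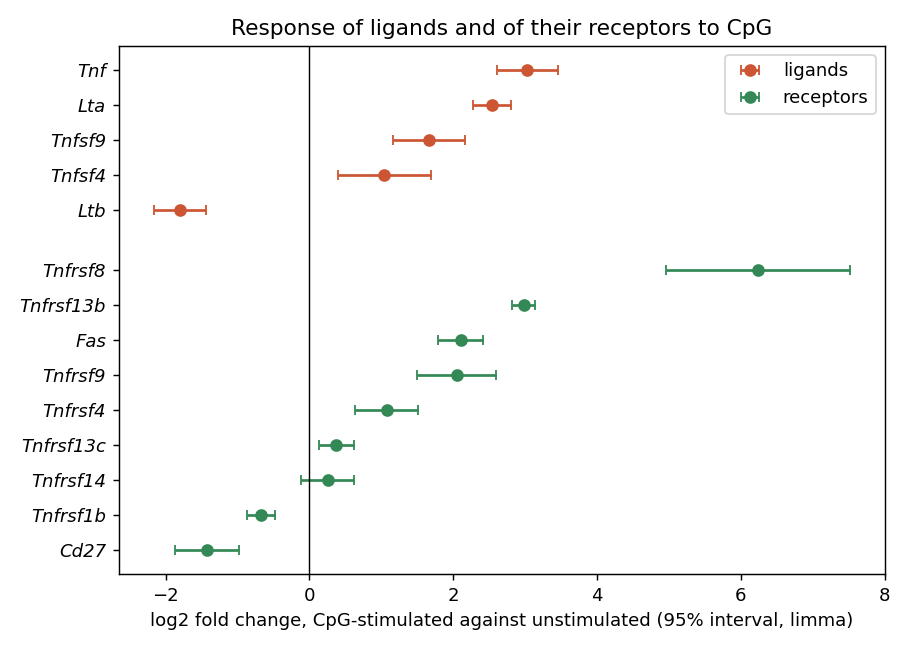
Log2FC with 95% intervals from limma, n = 3 samples in each group, for the 5 ligands and 9 receptors that were tested. Of the ligands Ltb alone lies left of 0, and of the receptors Cd27 and Tnfrsf1b do. The interval of Tnfrsf14 includes 0. That of Tnfrsf8 is the widest. Tnfrsf8 had under 10 reads in the unstimulated samples and entered the test only through its stimulated ones, so its interval is not read as a test result.

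Of 8 other ligands of the family, 2 were tested. Tnfsf15, which encodes TL1A and is the neighbor of Tnfsf8 at 86194 bases, had 0.69, -0.33 and -0.18 log2 CPM with CpG and -5.06, -2.04 and -3.22 without. It entered the test only through its stimulated samples, so its levels are given with no test. Tnfsf10, the gene of the death ligand TRAIL, had -0.46, -0.50 and -0.46 against 0.19, 0.28 and 0.37, and fell by 0.75 (SE 0.28, adjusted p 0.0321 by limma). With the replicate number as a block, Tnfsf10 no longer passed (adjusted p 0.0666). The other 6, including Cd40lg, had too few reads to test.

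A list of 14 genes held the enzymes that cut or help to cut these ligands from the membrane and proteins that control TNF mRNA. All 14 were tested, of which 7 were called higher, 5 lower and 2 did not pass. Over all genes tested, 37.6% were called higher and 36.7% lower. The median log2FC of the list was 0.15, against 0.00 over all genes tested. Zfp36l2 and Zc3h12a encode RNA-binding proteins that promote decay of cytokine mRNA. Zfp36l2 fell by 1.71 (SE 0.09, adjusted p 8.26e-08 by limma), while Zc3h12a, the gene of Regnase-1, rose by 1.17 (SE 0.07, adjusted p 2.39e-07 by limma). Adam10, a sheddase, fell by 1.33 (SE 0.06, adjusted p 5.19e-08 by limma), and Rhbdf2, the gene of a rhomboid-like partner of the TNF sheddase ADAM17, rose by 0.92 (SE 0.09, adjusted p 5.21e-06 by limma). Adam17 itself fell by 0.30 (SE 0.08, adjusted p 0.00767 by limma). Zfp36 fell by 0.89 (SE 0.12, adjusted p 7.25e-05 by limma), and Zfp36l1 did not pass (log2FC 0.10, adjusted p 0.339 by limma). Adam17, Zfp36 and Zfp36l1 were picked for mention after their values were seen.

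AU-rich elements in the 3′ untranslated region (UTR) mark unstable cytokine mRNAs and are bound by proteins of the ZFP36 family. They were counted after the values of the ligands had been seen, in the longest coding transcript of each gene. The nonamer TTATTTATT was found 5 times in the 764 bases of Tnf, 1 time in the 572 bases of Lta, 1 time in the 3631 bases of Tnfsf13b and in no other ligand. Of all 20962 genes with such a transcript, 7.58% held the nonamer and 0.649% held at least 3; among the 4003 genes with UTRs of 500 to 1000 bases the shares were 4.12% and 0.150%. The 156-base UTR of Ltb held neither the nonamer nor the pentamer ATTTA, which 21.5% of 2746 UTRs of 100 to 250 bases contained. Shown in capitals are the nonamers in 30 bases of the last exons of Tnf (chr17:35199681-35199710, minus strand) and Lta (chr17:35203406-35203435, minus strand); in Tnf 4 nonamers overlap.
Tnf: ttaTTATTTATTATTTATTTATTATTTATT
Lta: tttatggagagaaaagttaagTTATTTATT

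Promoters of 300 bases, from 250 before to 50 after the start, were found in RefSeq (GRCm38.p6) for 7 of the 10 ligands; Tnfsf4, Tnfsf9 and Cd70 were not matched. The κB motif GGGNNTTNCC, searched on both strands, was in 4.79% of 32851 promoters and in that of Ltb alone among the ligands, at positions -87 to -78 from the RefSeq start and -19 to -10 from the GENCODE start used in the sequence above. The AP-1 motif TGANTCA, searched on both strands, was in 7.81% of promoters and in those of Tnfsf13b and Tnfsf14. The TATA box TATAAA, searched on the gene's strand, was in 8.32% of promoters, at positions -29 to -24 from the start of Tnf and -167 to -162 from that of Lta. A match describes the letters and does not show binding. Other spellings of these motifs and bases outside the 300 were not searched. A promoter without a match may therefore still have a site, which holds for the κB motif in Tnf and Lta too.

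The 3 tested genes nearest to Tnf over the 6 samples, by Euclidean distance of values centered on each gene's mean, were Itln1 (0.358 log2 units), Ccl4 (0.390) and Igfbp4 (0.415), with log2FC of 3.03, 3.07 and 2.97. Ccl4 encodes the chemokine CCL4. Among the 3 nearest to Ltb were Add1 (0.204) and Bmf (0.253), with log2FC of -1.77 and -1.83. Bmf encodes a BH3-only protein that promotes apoptosis.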

How the data were processed

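RNA-seq values of 3 CpG-stimulated and 3 unstimulated samples were used. As the paper's methods and the submitters' processing notes state, the authors trimmed reads with Trim Galore 0.6.5, aligned them to mm10 with STAR 2.6.1a, counted genes with featureCounts of Subread 2.0.1, and ran voom after quantile normalization. In unit, the deposited files hold log2 CPM. The value of a gene without reads, -5.15, is that of 0.5 reads in a common library of 17.8 M reads, from which the values of 10 and 3 reads were computed. These values convert reads to the log2 CPM scale and hold no estimate of error.

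CpG-stimulated samples were compared with unstimulated ones in limma 3.58.1 (R 4.3.3; lmFit, eBayes with trend) with Benjamini-Hochberg adjustment over the 11233 genes that reached 10 reads in 3 or more samples. In simulated data for the 11233 genes of this comparison, limma recovered 173 of 200 genes given a log2FC of 1.5 and called 8 unchanged genes. Ratios within samples were compared by exact permutation. Alternatives were no filter, a stricter filter, log2(CPM + 1), a variance without trend, samples recentred or rescaled, a replicate block and samples left out.

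Deviations from the group means correlated at 0.435, 0.224 and 0.300 for samples with the same replicate number and at -0.281 to 0.0279 for others, so the numbers pair the samples as far as the data show. The reported tests have no replicate block, and a blocked value is given where it changes a call. The labels do not say that pairs share a mouse, and a numerical shift by replicate number, seen in values below that of 0 reads (6.0% of values, 63.6% of them equal to within 0.0015 to the sample of the same number), cannot be told apart from it. Sex also went with the replicate number, since replicate 3 was male in both groups, and its part in these correlations was not tested. P-values measure the spread between these samples.

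The members and gene lists were chosen with earlier results of these data known. Named genes are the 10 ligands, up to 4 genes with the largest change in each list and around the ligand genes, receptors past a log2FC of 1 in size, and the 3 genes nearest in pattern to Tnf and Ltb. Of the genes nearest to Ltb, 1 is not reported here. Gene positions and exon lengths are from GENCODE for GRCm38. Promoter sequences are from RefSeq.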

Additional observations from a re-analysis of the deposited data

How the results depend on the processing

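Of 75 values of the 5 tested ligands under the alternatives, 74 kept their direction and stayed past the threshold, and none reversed. The exception was Tnfsf4 with no filter and the replicate block, an alternative chosen after seeing the data, where the log2FC stayed at 1.04 but the adjusted p was 0.105. With 1 sample left out at a time, log2FC ranged from 2.80 to 3.17 for Tnf, 2.45 to 2.61 for Lta, -1.94 to -1.61 for Ltb, 0.87 to 1.16 for Tnfsf4 and 1.52 to 1.79 for Tnfsf9. Without replicate 2 of both groups, which had the highest erythroid signal, they were 3.01, 2.47, -1.96, 1.27 and 1.38. On the log2(CPM + 1) scale, which compresses low values, Tnfsf4 gave 0.54 and Tnfsf9 1.17.

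With no filter, 7 ligands were called higher in place of 4. The added ligands were at or under 3 reads in their unstimulated samples, so their calls are not read as test results. The replicate block changed no call among the tested ligands. Among the other ligands of the family, the call of Tnfsf10 was lost: 0 were called lower with the replicate block, with no filter, with no filter and the replicate block, without replicate 2 of both groups, and in every fit with 1 sample left out (0 to 0). Tnfsf15, which entered the main test only through its stimulated samples, left it when 10 reads were required in all 6 samples. With no filter and the replicate block, neither Tnfsf15 nor Ly6g5b was called, while both were called in the other fits that held them. Ly6g5b too entered the main test only through its stimulated samples, so the calls of both genes are not read as test results. Among the receptors, the call of Tnfrsf13c was lost with no filter and the replicate block (adjusted p 0.119 by limma). It was also lost without replicate 2 of both groups (adjusted p 0.0945 by limma). Requiring 10 reads in all 6 samples removed Tnfrsf8 from the test. The causes of these losses were otherwise not tested.

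Depth limits the 5 ligands under the filter, for which a difference of a few reads decides the order of the samples, and quantile normalization hides any change in total RNA.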
